A study of Arabidopsis thaliana with 8 samples.

Results

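Leaves treated with clothianidin were compared directly with leaves treated with imidacloprid, 2 arrays against 2, so that the 2 insecticides are set against each other at 1 dose and 1 time. These are 4 of the 8 Affymetrix arrays of the series, chosen by the agent in their labels, and 22746 of the 22810 probe sets entered, all except the 64 control probe sets. Both groups were wild-type Arabidopsis thaliana of strain Columbia-0, aged 4 weeks when treated with 4 mM of the compound, and whole mature leaves were collected on day 4. The plants came from 2 independent experiments, each sample was a single RNA preparation, and how many plants went into it is not given in the sources used here. No untreated array and no salicylic acid array entered the comparison.

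Clothianidin and imidacloprid are neonicotinoid insecticides that act on insect nicotinic acetylcholine receptors. Both carry a nitroguanidine group. Clothianidin is an open chain with a chlorothiazole ring, and imidacloprid holds its nitroguanidine in an imidazolidine ring and carries a chloropyridine ring. Plants commonly dispose of foreign compounds by oxidation with cytochromes P450 and by conjugation to glucose, through UDP-glycosyltransferases (UGTs), or to glutathione. Salicylic acid is the hormone of defence against biotrophic pathogens, and UGTs and GH3 enzymes also conjugate the plant's own hormones. Mesophyll cells carry most of the photosynthesis of a mature leaf.

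Levels are log2 values, and a difference is the clothianidin mean minus the imidacloprid mean, so a negative one means lower with clothianidin and 1 unit is 2-fold. The array medians were 4.92 and 5.09 with clothianidin and 4.85 and 4.84 with imidacloprid. The 25th percentile averaged 2.50 over the 4 arrays, and levels under it are called dim here. A gene is called measured where a probe set was matched to it, and 8730 of the probe sets had no gene. The leaf mesophyll markers RCA, SBPASE, LHCB4.1 and PRK, the 4 measured of 12 listed, lay between 9.85 and 14.36 on every array, with differences of 0.45 to 1.54, all higher with clothianidin. The root markers measured, 2 of 6, were EXPA7, dim at 1.96 to 2.01, and BGLU23, at 6.40 and 4.61 with clothianidin and 4.91 and 2.61 with imidacloprid. The guard cell marker FAMA, 1 measured of 3, read 4.59 and 5.09 with clothianidin and 3.15 and 4.14 with imidacloprid, a difference of 1.19 (95% interval -0.32 to 2.71). The trichome marker TRY, 1 measured of 4, differed by -0.83 (-3.54 to 1.87), and the part of these cell types in the results was not tested. The gap between 3′ and 5′ control probe sets is larger where RNA is degraded. For actin it was 1.04 and 1.75 with clothianidin and 0.87 and 1.11 with imidacloprid. For GAPDH it was 0.24 and 0.64 with clothianidin and 0.37 and 0.25 with imidacloprid. The part of these gaps in the results was not tested. Replicate arrays correlated across probe sets at r = 0.963 with clothianidin and 0.969 with imidacloprid, above the 0.913 to 0.954 between arrays of different compounds. Those correlations are a description, since probe sets are not independent.

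No probe set passed the test. In limma's test on the 4 arrays 0 of 22746 (0%) reached an adjusted p under 0.05 and the smallest adjusted p was 0.106, while 3689 (16.2%) had an unadjusted p under 0.05, 2114 higher (9.29%) and 1575 lower (6.92%) with clothianidin. With each array centred on its median, which moved the median difference of all probe sets to -0.19 from -0.04, that split was 1880 higher and 2289 lower. The genes below are therefore given by their levels, differences and 95% intervals, and none of them passed in the 4-array fit. As a description, 2067 probe sets (9.09%) were at least 2-fold higher with clothianidin without overlap between the groups, and 1616 (7.1%) were at least 2-fold lower. Counted by locus, that rule took 7.84% higher and 5.79% lower of 13286 loci, the shares against which each list below is read. A negative sign alone was common: 8418 loci (63.4%) had a difference below 0, as did 90.2% of the dim probe sets. Lack of overlap alone was common too: 9976 of the 22746 probe sets were lower without overlap and 4560 higher, whatever the size. In bulk leaf RNA, a change in the number of cells of a type and a change in RNA per cell cannot be told apart.

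**Figure D1:**
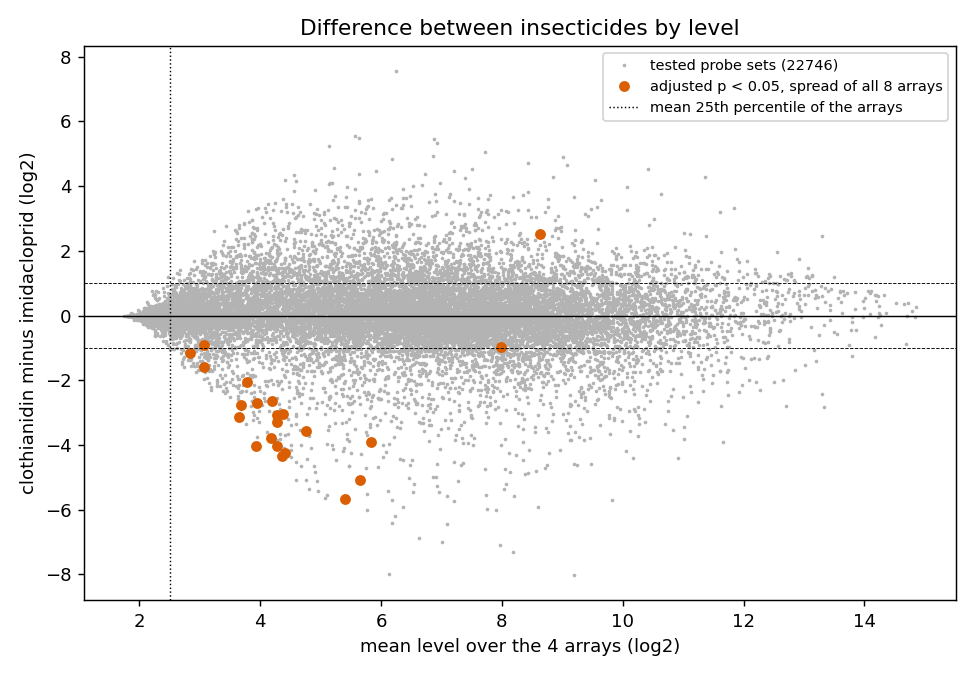
Each point is a probe set, with its mean log2 level over the 4 arrays on the x axis and its difference, clothianidin minus imidacloprid (log2), on the y axis; dashed lines mark 2-fold and the dotted line the 25th percentile. The 22 orange points passed in the fit with all 8 arrays, 1 above 0 and 21 below it, and differences range from -8.02 to 7.55.

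A fit of all 8 arrays, in which the untreated and salicylic acid arrays add only their spread, called 22 probe sets (0.0967%), 21 lower and 1 higher with clothianidin. The count hung on single arrays: it was 1 without either untreated array, 14 without either salicylic acid array, 36 and 8 without clothianidin replicates 1 and 2, and 279 and 157 without imidacloprid replicates 1 and 2. With the replicate number as a block it was 2, AT2G35730 and a probe set without a gene, so the other 20 were lost. Of the 22, 12 carry a single locus, which is 0.0903% of the 13286 loci, and 9 had a dim clothianidin mean. AT2G35730 was called in each of these fits. It read 2.303 and 2.21 with clothianidin and 6.32 and 6.27 with imidacloprid, a difference of -4.04 (n = 2 each). The clothianidin values of this gene were dim and its imidacloprid values were not, so the size of the difference is a lower limit.

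The neighbouring genes BGLU45 and BGLU46, whose beta-glucosidases release lignin precursors from their glucosides, were among the 22. BGLU45 was at 3.302 and 2.91 with clothianidin and 8.66 and 7.71 with imidacloprid, a difference of -5.08 (95% interval -6.48 to -3.68; limma adjusted p = 0.116 with 4 arrays and 0.0494 with all 8, not called with all 8 and the replicate block). BGLU46 was at 4.07 and 3.68 with clothianidin and 7.96 and 7.62 with imidacloprid, a difference of -3.91 (-4.64 to -3.18). Both were far apart between the compounds against a replicate gap of under 1 unit. Of the 20 measured beta-glucosidase genes 6 were at least 2-fold lower without overlap and 2 higher, against 5.79% and 7.84% of all loci. BGLU31 was counted lower through imidacloprid replicate 1 alone, and BGLU33 was highest at 1.65. AT5G49690 read 2.22 and 2.18 with clothianidin and 6.13 and 6.94 with imidacloprid, AT5G57510 read 3.18 and 2.76 with clothianidin and 6.31 and 6.78 with imidacloprid, and UGT76E1 read 2.64 and 2.54 with clothianidin and 5.16 and 5.43 with imidacloprid. The other single-locus members of the 22 were AT3G61930, AT4G19460, AT5G45630, AT2G14290, AT5G04910 and AT1G23560, all lower with clothianidin, from -3.28 for AT3G61930 to -0.92 for AT1G23560. AT5G04910 was the brightest of them, at 7.47 and 7.51 with clothianidin and 8.47 on both imidacloprid arrays. The 1 probe set higher with clothianidin has no gene in the probe table and read 10.02 and 9.76 with clothianidin and 7.27 and 7.48 with imidacloprid.

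**Figure D2:**
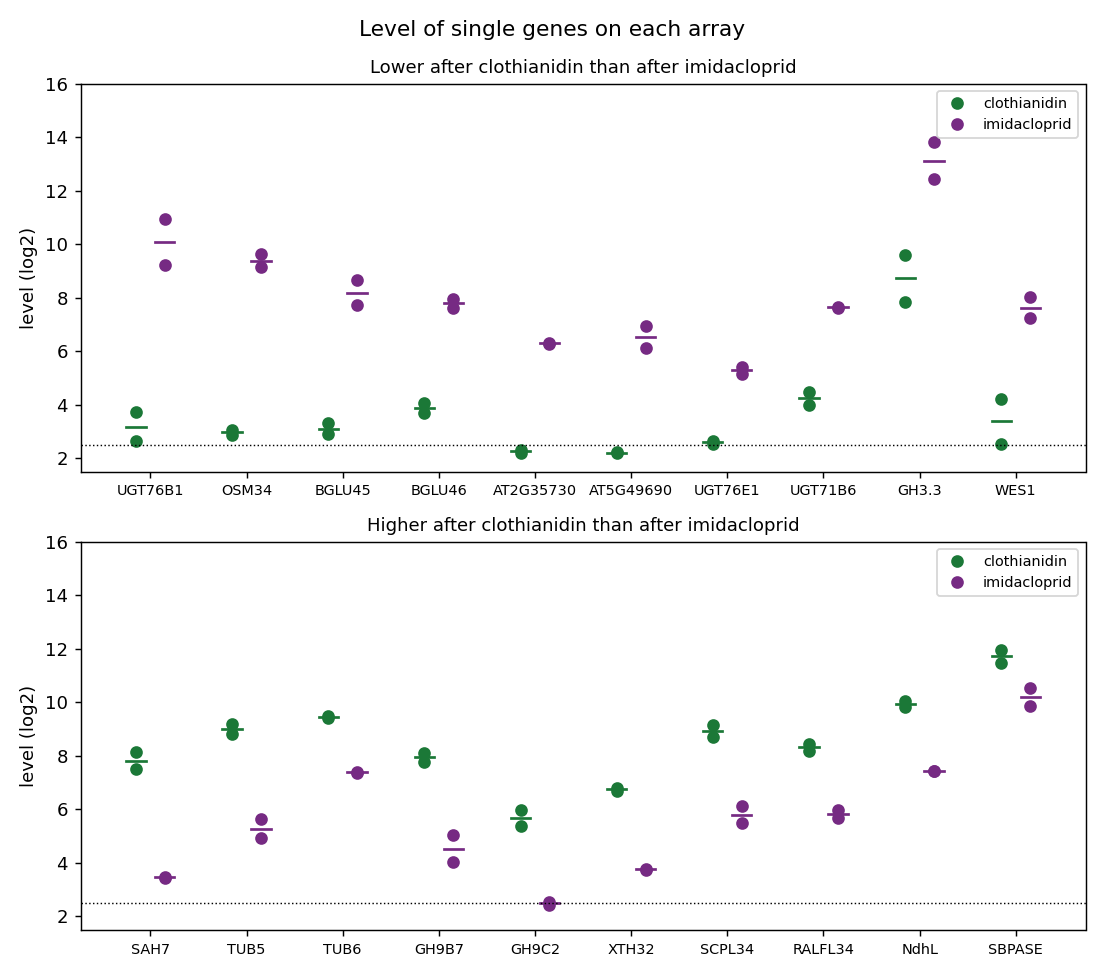
The log2 level of 20 genes on each array, clothianidin to the left and imidacloprid to the right of each gene, with a short line at each mean and the 25th percentile dotted. The clothianidin values of AT2G35730 and AT5G49690 lie under the dotted line. Several of the 20 were chosen after their values were seen, from probe sets whose groups do not overlap. That the groups overlap in none of the 20 is therefore no result.

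UGTs move glucose or another sugar onto small molecules. Of 47 measured UGT genes, 13 were at least 2-fold lower with clothianidin without overlap and 6 were higher, against 5.79% lower and 7.84% higher over all loci. The median difference was -0.14, against -0.04 over all loci, and 9 of the 47 were dim. UGT76B1, which glucosylates isoleucic acid and salicylic acid, was lowest at 3.72 and 2.65 with clothianidin and 9.22 and 10.93 with imidacloprid, a difference of -6.89 (-9.62 to -4.16). Both clothianidin arrays lay below both imidacloprid arrays, as for 9976 of the 22746 probe sets. UGT71B6, which glucosylates abscisic acid, was at 4.49 and 3.99 with clothianidin and 7.64 and 7.63 with imidacloprid, a difference of -3.40 (-4.09 to -2.70). IAGLU, a glucosyltransferase of indole-3-acetic acid counted outside the 47 and named after its value was seen, differed by -2.76 (-4.22 to -1.30). At the other end UGT78D1, a flavonol rhamnosyltransferase, was highest at 7.27 and 7.47 with clothianidin and 5.91 and 5.36 with imidacloprid, a difference of 1.73 (0.92 to 2.54). UGT74D1 differed by only -0.04 (-0.22 to 0.15) at a level of 7.67 to 7.72, so members of the family stood below, above and near 0.

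The list of UGTs tied to foreign compounds had 10 measured members of 17, and all 10 differences were negative, against 63.4% of all loci, with a median of -2.09. By the 2-fold rule without overlap, 7 of the 10 were lower with clothianidin and 0 were higher, against 5.79% and 7.84% of all loci. UGT73B4 and UGT73B5 are neighbours that glucosylate foreign phenols and nitroaromatics. UGT73B4 read 2.42 and 2.28 with clothianidin and 5.65 and 8.38 with imidacloprid. UGT73B5 read 6.74 and 5.96 with clothianidin and 8.55 and 9.77 with imidacloprid, so the groups overlapped in neither. UGT76E12 had the lowest difference of the list at -5.45, with an interval of -10.18 to -0.72, and its replicates lay over 2 units apart in both groups. GT72B1, which conjugates chlorinated phenols and anilines, read 8.94 and 8.45 with clothianidin and 10.11 and 10.12 with imidacloprid, a difference of -1.42 (-2.11 to -0.73). UGT71C1 was the highest at -0.01.

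**Figure D3:**
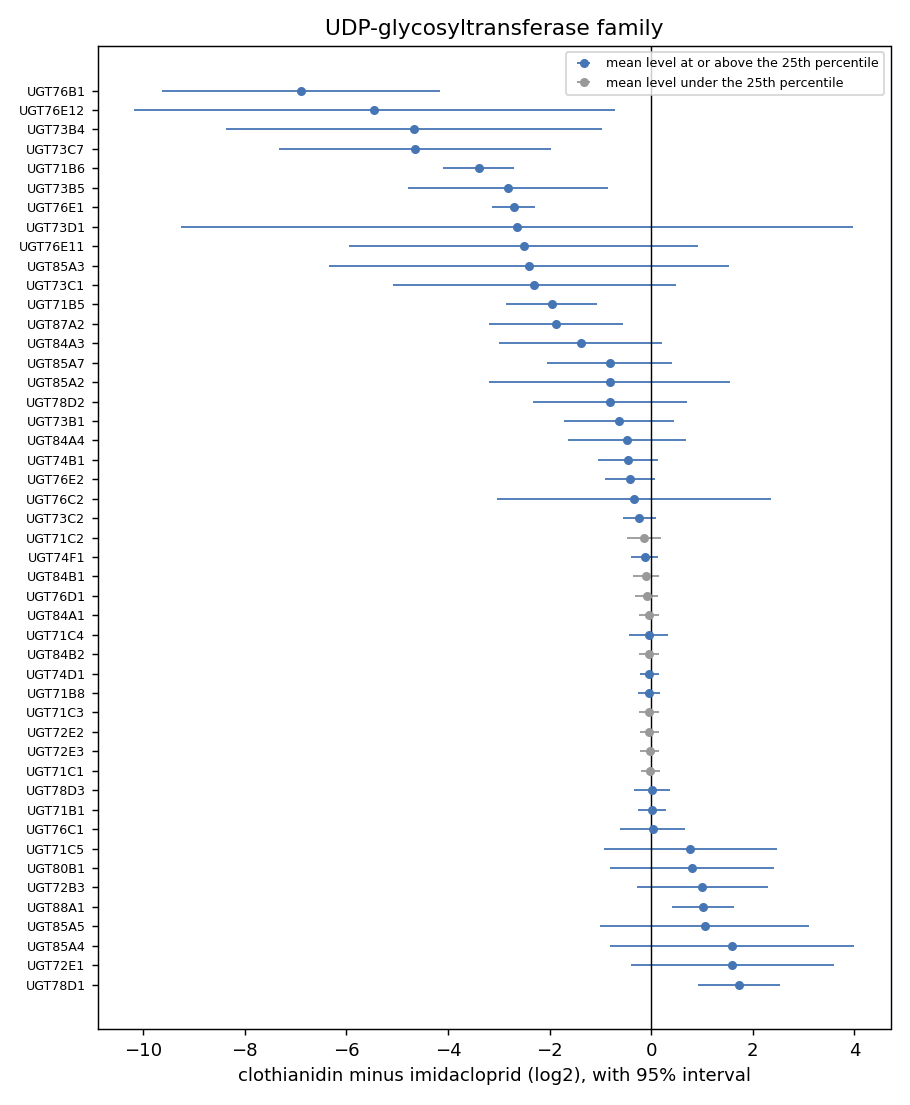
Differences of the 47 measured UGT genes, clothianidin minus imidacloprid (log2), with 95% intervals from limma on 4 arrays (n = 2 each); grey genes are dim on average. The differences run from -6.89 for UGT76B1 to 1.73 for UGT78D1, and none passed an adjusted p of 0.05.

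Cytochromes P450 and glutathione S-transferases carry out the other steps of detoxification. Of 23 measured cytochromes P450, 2 were at least 2-fold lower without overlap and 1 was higher, near the 5.79% and 7.84% of all loci, and the median was -0.05. The lowest was CYP71B6, at 9.18 and 9.19 with clothianidin and 10.88 and 11.05 with imidacloprid, a difference of -1.78 (-2.08 to -1.48). The highest was CYP71B34 at 1.52 (0.25 to 2.80). Of 11 tau-class glutathione S-transferases, 1 was lower and 2 were higher; GSTU28 was lowest at -1.54 and GSTU20 highest at 2.84, with an interval of -2.64 to 8.32.

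Genes of salicylic acid synthesis and signalling, 7 measured of 35, had a median of -1.13. Against 5.79% of all loci, 3 of the 7 were at least 2-fold lower with clothianidin without overlap. Beside UGT76B1 these were GRX480, a salicylic acid-responsive glutaredoxin that binds TGA factors, and AT5G52810. GRX480 was at 8.66 and 8.10 with clothianidin and 10.52 and 10.63 with imidacloprid, a difference of -2.20 (-2.9998 to -1.40). WRKY6, a senescence and defence transcription factor, differed by -2.10 (-3.64 to -0.56). WRKY53, another regulator of senescence, lay at 9.28 and 10.10 with clothianidin and 9.88 and 9.76 with imidacloprid. Its difference of -0.13 (-1.26 to 1.01) leaves room for a 2-fold difference either way. SAG29, the highest of the 3 measured senescence genes, went the other way at 2.17 (-4.21 to 8.55). It read 2.12 and 6.82 with clothianidin and 2.17 and 2.43 with imidacloprid, so its groups overlapped. SAG101 was the highest of the salicylic acid list at 0.24 (-1.91 to 2.39), and AT1G65500 differed by 0.42 (-1.20 to 2.05).

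The auxin list had 4 measured genes of 18, with a median difference of -2.16. GH3.3, which joins amino acids to indole-3-acetic acid, read 9.61 and 7.82 with clothianidin and 12.45 and 13.80 with imidacloprid, a difference of -4.41 (-7.45 to -1.37). WES1, a GH3 enzyme that takes both auxin and salicylic acid, read 4.23 and 2.53 with clothianidin and 7.23 and 8.01 with imidacloprid, a difference of -4.24 (-6.78 to -1.70). Of the 4, these 2 were at least 2-fold lower without overlap and 0 were higher, against 5.79% and 7.84% of all loci. GH3.1, dim on every array, differed by -0.08 and IAA29 was at 0.90 (-1.58 to 3.38). Both clothianidin arrays lay below both imidacloprid arrays for GH3.3 and WES1, as for 9976 of the 22746 probe sets.

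Phenylpropanoid and lignin genes, 6 measured of 24, had a median of -1.10. Against 5.79% of all loci, 3 were at least 2-fold lower with clothianidin without overlap: BGLU45, BGLU46 and the cinnamoyl-CoA reductase CCR2. CCR2 differed by -1.51 (-4.18 to 1.16), and UGT72E3, the highest, by -0.02. CCOAMT, a caffeoyl-CoA O-methyltransferase outside that list and named after its value was seen, was at 6.19 and 3.95 with clothianidin and 9.69 and 9.59 with imidacloprid. AT2G37130 read 6.05 and 4.71 with clothianidin and 8.30 and 8.17 with imidacloprid, a difference of -2.86 (-4.70 to -1.02).

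Genes of protein folding in the endoplasmic reticulum and of the unfolded protein response, 5 measured of 17, all had negative differences, against 63.4% of all loci, with a median of -1.07. By the 2-fold rule without overlap 3 were lower, against 5.79% of all loci. BZIP28, a membrane-bound sensor of that response, read 7.95 and 7.35 with clothianidin and 9.32 and 9.80 with imidacloprid, a difference of -1.91 (-2.97 to -0.85). BZIP17, a related factor, was the highest at -0.42. The antioxidant list, 4 measured of 23, had a median of -1.43 and 3 members at least 2-fold lower without overlap, against 5.79% of all loci. Its lowest member was the glutathione reductase GR1, at 8.24 and 6.76 with clothianidin and 9.29 and 9.21 with imidacloprid, and its highest the second glutathione reductase GR at 0.53.

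Some catabolic genes were chosen after their values were seen. MCCA, a subunit of the methylcrotonyl-CoA carboxylase of leucine breakdown, read 7.93 and 7.59 with clothianidin and 9.84 and 11.21 with imidacloprid. ETFQO, which passes electrons from amino acid breakdown to ubiquinone, read 5.32 and 5.26 with clothianidin and 7.97 and 8.49 with imidacloprid, a difference of -2.94 (-3.68 to -2.20). MGL, a methionine gamma-lyase, read 5.62 and 5.67 with clothianidin and 8.59 and 10.26 with imidacloprid. ASPGB1, an asparaginase, differed by -3.60 (-5.67 to -1.53). These genes were picked from probe sets whose groups did not overlap, so their lack of overlap is no result. Of 10 measured autophagy genes, a family also chosen afterwards, 2 were at least 2-fold lower without overlap and 0 were higher, against 5.79% and 7.84% of all loci. The 2 were ATG8H, at 6.95 and 5.22 with clothianidin and 9.73 and 11.03 with imidacloprid, and APG8A at -1.82 (-3.34 to -0.29). ATG8C was the highest at 0.27. OSM34, an osmotin-like defence protein, read 3.06 and 2.88 with clothianidin and 9.62 and 9.16 with imidacloprid, a difference of -6.42 (-7.10 to -5.73). With the spread of all 8 arrays the OSM34 interval was -10.91 to -1.93. SWEET2, a vacuolar sugar transporter, was at 4.76 and 2.45 with clothianidin and 8.28 and 8.32 with imidacloprid, while SWEET13, which exports sucrose for phloem loading, was the highest of 14 SWEET genes at 2.13 (0.82 to 3.44).

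**Figure D4:**
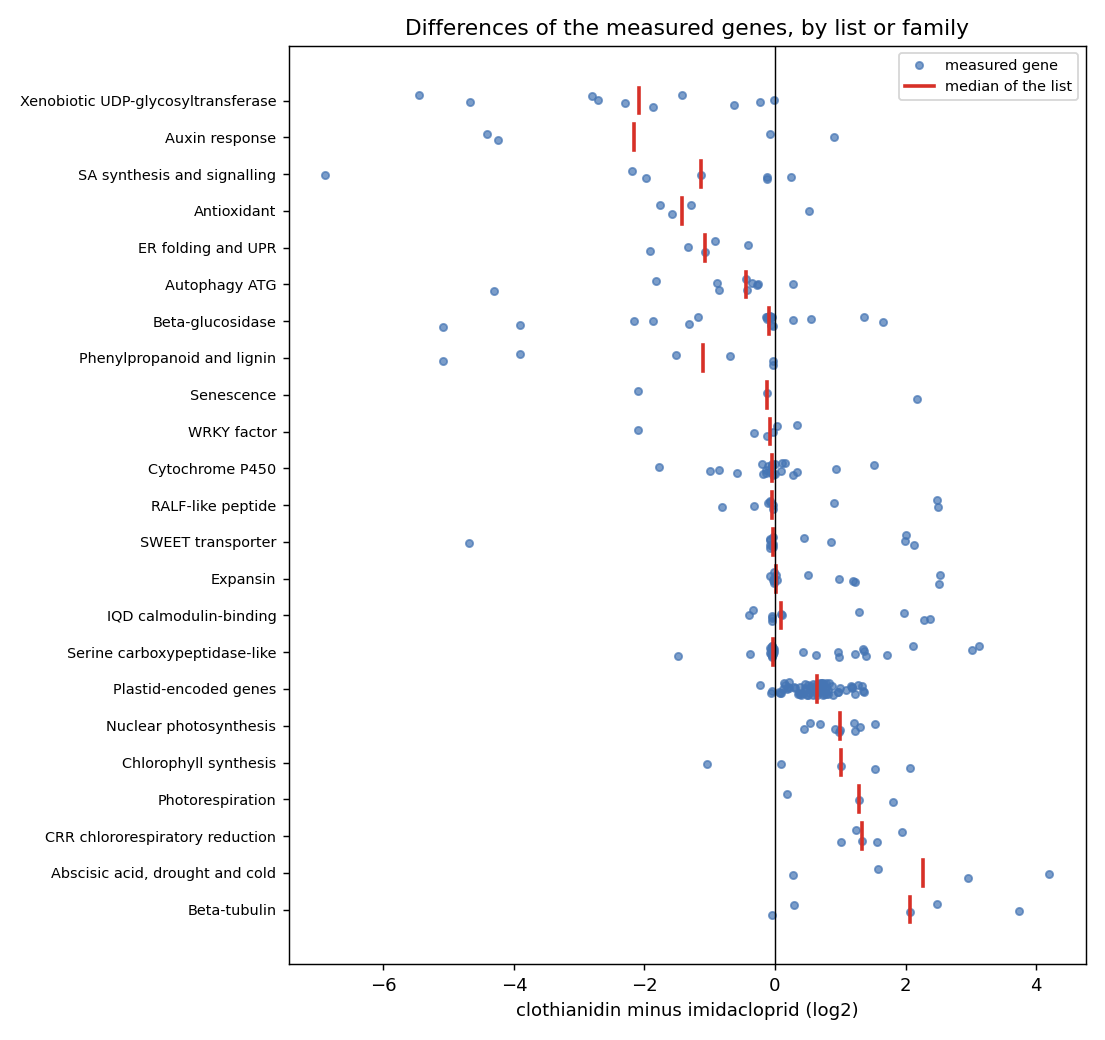
Each blue point is a measured gene, placed by its difference, clothianidin minus imidacloprid (log2), within its list or family, and red bars are list medians. All 10 foreign-compound UGTs lie at or below 0 and all 10 nuclear photosynthesis genes above it; the beta-tubulin, CRR and autophagy families were chosen after values were seen.

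The photosynthesis lists had positive medians. All 10 measured of 60 nuclear photosynthesis genes had positive differences, against 4868 of all 13286 loci, with a median of 0.99. Of the 10, 5 were at least 2-fold higher with clothianidin without overlap, against 7.84% of all loci. SBPASE, a Calvin cycle phosphatase, read 11.98 and 11.48 with clothianidin and 10.53 and 9.85 with imidacloprid, a difference of 1.54 (0.38 to 2.69). RCA, which activates Rubisco, was the lowest of the 10 at 14.36 and 14.03 with clothianidin and 13.85 and 13.65 with imidacloprid, a difference of 0.45 (-0.11 to 1.01). Of 5 chlorophyll synthesis genes 3 were at least 2-fold higher and 1 lower without overlap, against 7.84% and 5.79% of all loci. PORB, a protochlorophyllide reductase, read 11.77 and 11.10 with clothianidin and 9.76 and 8.96 with imidacloprid, whereas HEMA2, a glutamyl-tRNA reductase expressed mainly outside green tissue, differed by -1.04 (-1.90 to -0.19). In photorespiration, HPR, the hydroxypyruvate reductase, differed by 1.28 (0.78 to 1.78), AT1G11860 was the highest of 3 at 1.80 and AT1G80380 the lowest at 0.18.

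Plastid-encoded transcripts shared the direction in smaller steps. Of 69 measured plastid genes 66 had positive differences, against 4868 of all 13286 loci, with a median of 0.65. By the 2-fold rule without overlap 9 were higher and 0 lower, against 7.84% and 5.79% of all loci. The ribosomal protein gene rps19 was the highest, at 12.51 and 12.30 with clothianidin and 11.53 and 10.55 with imidacloprid. The RNA polymerase subunit gene rpoA was among the tightest, at 11.73 and 11.75 with clothianidin and 10.68 and 10.62 with imidacloprid, a difference of 1.09 (0.88 to 1.29). With the spread of all 8 arrays the interval was wider for rpoA, at -0.04 to 2.22. It was narrower for others, such as psbK at 0.46 to 1.07 against 0.32 to 1.21 with 4 arrays. Among photosystem core genes, psbA and psaB differed by -0.04 (-0.40 to 0.32) and -0.06 (-0.37 to 0.26) at levels of 14.11 to 14.90. These intervals lie within 2-fold. Other core genes had positive differences, among them psaA at 0.72 (-0.32 to 1.77) and psbC at 0.43 (0.23 to 0.63). For psbB and psbD they were 0.66 and 0.40. The lowest of the 69 plastid genes was ndhF at -0.23 (-1.64 to 1.18).

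The chloroplast NADH dehydrogenase-like (NDH) complex runs cyclic electron flow around photosystem I. NdhL, a nuclear-encoded subunit named after its value was seen, read 9.83 and 10.05 with clothianidin and 7.42 on both imidacloprid arrays, a difference of 2.52 (2.17 to 2.87). Cpn60beta4, also named after its value was seen, read 7.80 and 8.62 with clothianidin and 5.76 and 6.11 with imidacloprid. It is a chaperonin subunit needed to fold a protein of this complex. The CRR genes, which edit its transcripts or help build the complex, are a family chosen after values were seen. All 5 measured had positive differences, with a median of 1.33. Of these, 4 were at least 2-fold higher without overlap, against 7.84% of all loci. CRR42 was highest at 1.94 (1.02 to 2.86) and CRR41 lowest at 1.01 (-0.29 to 2.31). Among the plastid-encoded subunits, ndhJ was at 1.23 (-0.26 to 2.72), ndhD at 0.06 and ndhF at -0.23 (-1.64 to 1.18), with no test between them.

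Walls and the cytoskeleton set the shape of plant cells, and most of the following genes were named after their values were seen. The beta-tubulin gene TUB5 read 8.84 and 9.20 with clothianidin and 5.63 and 4.93 with imidacloprid, and TUB6 read 9.50 and 9.42 with clothianidin and 7.41 and 7.38 with imidacloprid. TUB5 differed by 3.74 (2.65 to 4.83) and TUB6 by 2.07 (1.85 to 2.29), and TUB1 was the lowest of 5 beta-tubulins at -0.04 (-0.23 to 0.15). With the spread of all 8 arrays the TUB6 interval was 0.59 to 3.54. XTH32, an enzyme that cuts and rejoins wall xyloglucan, was among the tightest, at 6.80 and 6.69 with clothianidin and 3.79 and 3.74 with imidacloprid, a difference of 2.98 (2.73 to 3.23). XTH29 of the same family stood opposite, at 2.15 and 2.13 with clothianidin and 4.90 and 5.49 with imidacloprid. The glycosyl hydrolase family 9 genes GH9B7 and GH9C2, of a family of cellulose-cutting glucanases, differed by 3.42 (1.94 to 4.90) and 3.201 (2.36 to 4.04), and the other 13 of 15 did not reach 2-fold without overlap, down to GH9B11 at -0.25; 12 of the 15 were dim, so few of the others were measured above background levels. Of 14 expansins, proteins that loosen walls, 3 were at least 2-fold higher without overlap and 0 lower, against 7.84% and 5.79% of all loci. The expansins ran from EXPA4 at 2.53 (0.53 to 4.52) to EXPA21 at -0.07. Of 22 TBL genes, which acetylate wall polymers, 3 were higher and 2 lower by the same rule, near the shares of all loci, and 8 were dim. They ran from TBL38 at 3.69 (-2.27 to 9.65) to TBL41 at -1.89 (-6.61 to 2.83). TBL41 was 1 of the 2 lower through imidacloprid replicate 2 alone.

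Receptors and peptides sense the state of the wall. THE1, RALFL34, SAH7 and PMEAMT were named here after their values were seen, from probe sets whose groups did not overlap. Their lack of overlap is therefore no result. THE1, a receptor kinase that monitors wall integrity, read 9.32 and 9.83 with clothianidin and 6.50 and 7.55 with imidacloprid. RALFL34, whose RALF peptide is a ligand of that receptor, read 8.44 and 8.20 with clothianidin and 5.68 and 5.98 with imidacloprid, a difference of 2.49 (1.94 to 3.03). RALFL24 read 6.94 and 6.63 with clothianidin and 4.26 and 4.30 with imidacloprid. Of 10 RALF genes these 2 were at least 2-fold higher without overlap and 0 were lower, with RALFL18 lowest at -0.81 (-2.87 to 1.24). The shares of all loci were 7.84% higher and 5.79% lower, also for the IQD and serine carboxypeptidase-like counts below. CLE26, of the CLE signalling peptides, read 4.57 and 4.52 with clothianidin and 2.92 and 3.15 with imidacloprid, and was the highest of 5 CLE genes, with CLE40 lowest at -0.06. Of 11 IQD genes, which encode calmodulin-binding proteins tied to microtubules, 4 were at least 2-fold higher and 0 lower, with IQD30 highest at 2.38 (1.52 to 3.24) and IQD22 lowest at -0.40. Of 29 serine carboxypeptidase-like genes 7 were higher and 1 lower by that rule. SCPL34 was highest at 8.72 and 9.15 with clothianidin and 6.15 and 5.48 with imidacloprid, and scpl16 lowest at -1.48. SAH7, of the Ole e 1 family, read 7.49 and 8.16 with clothianidin and 3.49 and 3.43 with imidacloprid, a difference of 4.37 (3.45 to 5.29), and PMEAMT, a methyltransferase of phosphocholine synthesis, differed by 3.67 (1.48 to 5.86).

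For some cold and anthocyanin genes the 2 clothianidin arrays lay apart. COR15A, a cold-induced chloroplast protein, read 9.72 and 13.57 with clothianidin and 7.66 and 7.22 with imidacloprid, and its neighbour COR15B read 8.96 and 11.73 with clothianidin and 6.997 and 7.80 with imidacloprid. The intervals of both, -1.06 to 9.46 and -0.96 to 6.86, include 0. The median of the 4 abscisic acid, drought and cold genes was 1.29 within replicate 1 and 4.03 within replicate 2, and LTI30 differed by -0.98 and 4.13 within them. COR47 was the lowest of the 4 at 0.28 (-3.02 to 3.58). DFR, an enzyme of anthocyanin synthesis, read 2.33 and 4.85 with clothianidin and 2.21 and 2.18 with imidacloprid, so only clothianidin replicate 2 stood above dim levels. Of the 4 measured flavonoid and anthocyanin genes of 17, 0 were lower and 1 was higher by the 2-fold rule without overlap. That 1 was DFR, through clothianidin replicate 2 alone. UGT78D2, a flavonoid glucosyltransferase, did not share the pattern of DFR, at 6.38 and 7.02 with clothianidin and 7.06 and 7.97 with imidacloprid, a difference of -0.81 (-2.33 to 0.70). The same array was low for BSMT1, the salicylic acid methyltransferase, at 6.25 and 2.29 with clothianidin and 5.98 and 6.52 with imidacloprid.

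**Figure D5:**
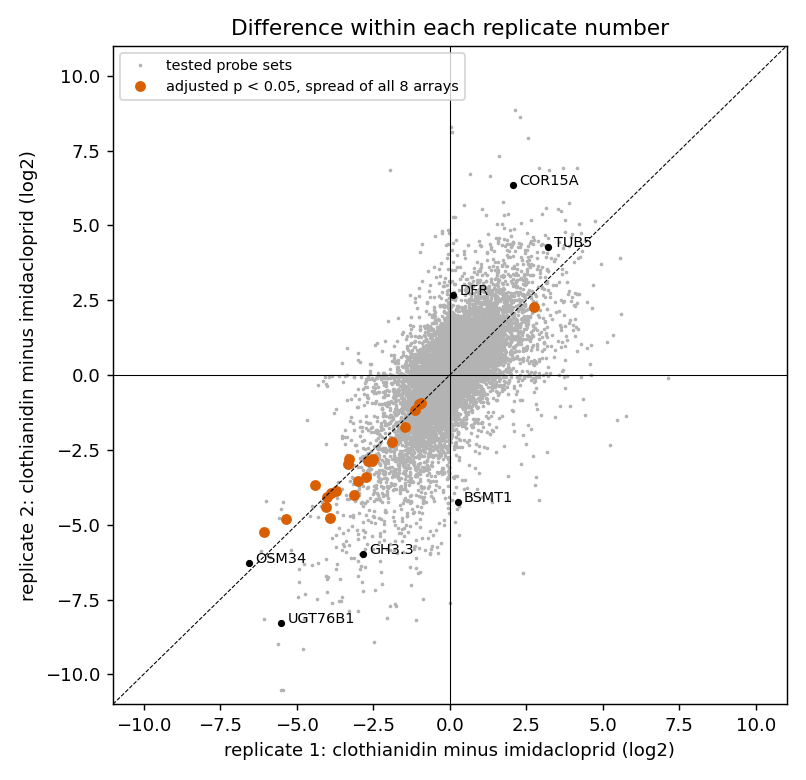
Difference, clothianidin minus imidacloprid (log2), of each probe set within replicate 1 (x axis) and replicate 2 (y axis), with the diagonal dashed and the 22 probe sets of the 8-array fit in orange. COR15A and DFR lie above the diagonal and BSMT1 below it, and r over all probe sets is 0.643. The 22 lie near the diagonal, which is partly set by the test, since it favours probe sets with a small spread between replicates.

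Over all probe sets the differences within replicate 1 and within replicate 2 correlated at r = 0.643, a description across probe sets that are not independent. Of the probe sets at least 2-fold apart without overlap, clothianidin replicate 1 was the one nearer to imidacloprid in 1241 of the 2067 higher and in 1176 of the 1616 lower. Clothianidin replicate 1 also correlated more closely with the imidacloprid arrays, at r = 0.954 and 0.931, than clothianidin replicate 2 did, at 0.920 and 0.913.

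A narrow interval around 0 marks genes measured alike with both compounds. The 95% interval lay within 2-fold either way for 10800 probe sets (47.5%), of which 5237 were dim, and for 32.0% of the 17375 that were not dim. The tightest at a mean level above 8 were Y14, AT3G26085, AT4G10320, AT2G21290, AT2G07180 and AT2G07360. They were picked by that tightness, so it is no result. For AT4G10320 the interval was -0.21 to 0.16 with 4 arrays and -0.59 to 0.54 with the spread of all 8. Y14, a subunit of the exon junction complex, read 9.11 and 9.16 with clothianidin and 9.13 and 9.14 with imidacloprid, a difference of 0.00 (-0.20 to 0.20). At the other extreme the interval of 3379 probe sets (14.9%) reached past 2-fold in both directions, so 2 arrays a group could not place them. The interval lay wholly above 2-fold higher for 374 probe sets and wholly below 2-fold lower for 259. The single-locus probe sets with the smallest p that are not described above were AT1G66180 and AT5G55220, at 2.65 and 2.04, and AT3G10320 and AT3G57380, at -3.67 and -3.40. Histone genes, 5 measured, had 0 at least 2-fold apart without overlap, from HTR12 at -0.04 to HTB2 at 0.73.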

How the data were processed

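Total RNA was hybridised to 1-colour Affymetrix arrays, 1 per sample. The deposited values are log2 levels per probe set, for which the submitters' processing notes list affy and RMA, without versions or an order of steps. RMA compresses low levels and makes the arrays' distributions alike.

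From the deposited log2 values, the 2 clothianidin and 2 imidacloprid arrays were tested with lmFit and eBayes of limma 3.58.1, in R 4.3.3, over 22746 probe sets, with 2 residual degrees of freedom (prior 0.884). A call was a two-sided Benjamini-Hochberg adjusted p under 0.05, and intervals are 95% intervals of that fit. An exact permutation test of 2 against 2 cannot go below 0.333. The labels name independent experiments but do not say that a replicate number marks one, so no block was used; replicate deviations correlated at 0.230 between the groups. Precision is limited by the number of arrays.

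Of the probe sets, 13436 matched a locus through the platform's probe table and the TAIR10.1 gene table, covering 13286 loci; 503 had several genes and 8730 none, and a locus with several probe sets was represented by the brightest. Of the 372 loci in the lists 72 had such a match. Listed genes without one are not analysed here and may still have probe sets on the array, so a list median covers only the matched part. Members and lists were chosen with earlier results of these data known: 17 lists by locus and 33 families by symbol, of which 4 (beta-tubulins, glycosyl hydrolase family 9, CRR and autophagy) were added after values were seen. The symbol pattern for cytochromes P450 was also narrowed then, to leave out cyclophilins. A list is described by counts and its median, with no set test, where 3 or more loci were measured. The text names called probe sets or, with none, the 4 smallest p in each direction. It also names the highest and lowest member of each list described, the 6 tightest intervals at a mean above 8, and 19 genes whatever their values; others are said to be named after their values were seen. The fit was tested on simulated data. Alternatives were all 8 arrays, the 6 treated arrays, a trend with a robust prior, a filter on dim probe sets, a replicate block, median centring, repeated quantile normalization, a 2-fold threshold, the least variable probe set per locus and leaving out each array; variants of the 8-array fit were chosen after seeing the data. The plots were made in matplotlib 3.10.9.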

Additional observations from a re-analysis of the deposited data

How the results depend on the processing

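The 4-array count of 0 calls held with a trend and robust prior, a filter on dim probe sets, a replicate block, median centring, repeated quantile normalization, a 2-fold threshold and without each array in turn; in those fits 0 of the 19 fixed genes and 0 list members were called. With all 8 arrays 22 probe sets, 5 fixed genes and 3 list members were called, and with the 6 treated arrays 1 probe set, AT2G35730, which is also 1 of the fixed genes. Variants of the 8-array fit, chosen after seeing the data, called 37 with a trend and robust prior, 2 with a replicate block and 28 with median centring, 1 without either untreated array, 36 and 8 without clothianidin replicates 1 and 2, 279 and 157 without imidacloprid replicates 1 and 2, and 14 without either salicylic acid array; they shared 20, 2 and 19 of the 22 in the first 3. The fit without an untreated array equals the 6-array fit in its spread, since a lone array has none. Leaving out either salicylic acid array likewise took away the spread of that whole group, so those 2 fits were the same. For the other changes of the count the cause was not tested. Pairing by replicate number with 4 arrays left 0 calls, and the numbers are not known to pair the arrays. Intervals within 2-fold held for 5223 probe sets with dim ones left out, against 10800, and for 9504 to 10499 without 1 array. Of the differences of named genes, 1354 repeats kept direction and side of the threshold, 23 became calls with more arrays and 35 changed sign, all for genes near 0 or with wide intervals. Median centring turned AT3G26085 to -0.15, Y14 to -0.16, AT2G21290 to -0.14, AT2G07360 to -0.12 and ndhD to -0.096. Quantile normalization turned ndhD to -0.079, AT4G10320 to 0.026, UGT72E3 to 0.0019, CLE40 to 0.0019, TUB1 to 0.0065, UGT71C1 to 0.013 and HTR12 to 0.00013. Without 1 array the ranges were -0.68 to 0.22 for ndhF, -0.15 to 0.037 for psaB, -0.14 to 0.052 for psbA, -0.90 to 0.060 for BZIP17, -0.51 to 0.99 for SAG101, -0.011 to 1.81 for IAA29, -0.54 to 0.28 for WRKY53, -1.23 to 0.42 for IQD22, -0.012 to 0.028 for AT3G26085, -3.97 to 0.0012 for BSMT1, -0.73 to 1.29 for COR47, -0.036 to 0.39 for AT1G80380, -0.027 to 0.028 for Y14, -0.018 to 0.051 for AT2G21290, -0.098 to 0.95 for AT1G65500 and -0.0013 to 0.078 for AT2G07360. The cause of these changes was not tested. The family median of expansins was -0.13 and of IQD genes -0.07 under median centring, against 0.02 and 0.09. The lowest value on any of the 4 arrays was 1.73, which bounds the difference of a gene that is dim in 1 group.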
